A study of Mus musculus with 12 samples.

Results

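Of the regions that carried the histone mark H3K4me3 in every library of mouse small-intestinal epithelium, 475 were covered over a greater length in adult than in embryonic cells. They were chosen among 8651 autosomal regions with a peak in all 8 peak lists, called constant regions here, out of 24352 merged regions on all chromosomes. The covered length of each region, in bp under the peaks of a library, was divided by the median of that library over the constant regions, which gives a relative length with 1 at the library's median. A region was taken when the lowest of its 4 adult relative lengths lay above the highest of its 4 embryonic ones and the mean adult value exceeded the mean embryonic value by a set factor, so that the smallest ratio taken was 1.332 and the largest left out for its size was 1.326. The regions were thus chosen by their covered lengths in the adult and embryonic libraries, and the difference between these is given as a description without a test.

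The libraries came from 4 groups of 2, described as biological duplicates, all from mice of a mixed C57BL/6 CD1 background. The adult groups were enterocytes (P60) and Lgr5-EGFP-high intestinal stem cells (ISC, P60), both from males carrying the Lgr5EGFP-Cre-ERT allele, whose EGFP is driven from the Lgr5 locus. The embryonic groups were epithelium of E14.5 and of E12.5, for which the labels give neither sex nor an allele. Enterocytes and embryonic cells were sorted as EpCAM+CD31-CD45- living cells, and the enterocyte gate names no enterocyte marker, so other epithelial cells can be among them. The study followed chromatin while adult stem cells are specified and differentiate. Whether a library pooled several animals is not stated in the labels, and p-values measure the spread between these libraries.

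H3K4me3 is placed by SET1 and MLL methyltransferase complexes on nucleosomes around the start sites of active and poised genes. Most marked regions are short and centred on a promoter, while some spread over the start of the transcribed part of a gene, and long H3K4me3 domains are known from genes that define a cell's identity. In the small intestine, enterocytes absorb nutrients and exchange ions on the villus, and Lgr5-positive stem cells at the crypt base renew them. In the embryo the epithelium between E12.5 and E14.5 is still proliferating and has only begun to form villi. Regions are given by mm9 position, because the gene and promoter tables used here are for another build and no position was carried between builds. Genes were therefore not assigned and no sequence is shown.

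Depth was lowest in enterocyte replicate 1, with 12821255 tags, and highest in E14.5 replicate 1, with 43259380, and the lists held 11111 to 17658 peaks. The median covered length over constant regions was 1273 and 1469 bp in enterocytes, 1294 and 1526 bp in stem cells, 1714 and 1750 bp at E14.5 and 988 and 1152 bp at E12.5 (replicates 1 and 2). The E14.5 libraries thus had the longest peaks by this median and the E12.5 libraries the shortest. Division by the median sets the medians equal, but not the spread around them. Over constant regions, the quartiles of relative length were 0.663 and 1.47 in E12.5 replicate 1 and 0.765 and 1.32 in E14.5 replicate 1. The 2 shallowest libraries, enterocyte replicate 1 and ISC replicate 1, are both adult. Libraries of a group were called against the same input, so that the effect of a group and of its input cannot be told apart.

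In the embryo the 475 regions were near the library median at E14.5 and below it at E12.5, and in the adult they were longer than the median. Their median relative length was 1.71 and 1.65 in the enterocyte libraries, 1.31 and 1.34 in ISC, 0.949 and 0.967 at E14.5 and 0.694 and 0.778 at E12.5. In bp without scaling, the medians were 2172 and 2427 in enterocytes, 1692 and 2046 in ISC, 1627 and 1693 at E14.5 and 686 and 896 at E12.5. The median of the adult over embryonic ratio was 1.67, with quartiles of 1.46 and 2.00, against 0.98 over all constant regions. A ratio of at least 2 was reached by 119 regions and one of at least 3 by 18. A call of a region in bulk material cannot tell a longer domain in each cell from a longer domain in a larger share of the cells.

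**Figure D1:**
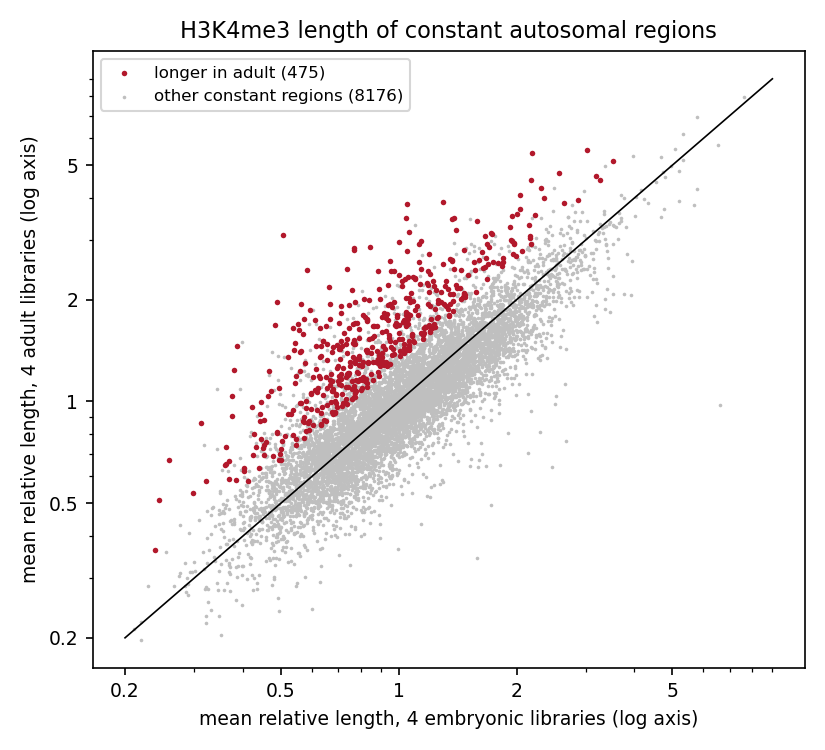
Mean relative length of the 8651 constant autosomal regions over the 4 adult libraries (vertical, log axis) and the 4 embryonic libraries (horizontal, log axis), in units of the library median, with the line of equal length. The 475 chosen regions (red) lie above the line, which the rule requires, and reach down to embryonic values near 0.239 and up to adult values of 5.55.

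These 475 regions were 5.49% of the constant regions, and the rule turned round, for regions shorter in adult epithelium, took 393, or 4.54%. Because the rule used this contrast, nothing is read from these shares. Among constant regions, 1057 had a ratio at or above that factor, of which 582 had adult and embryonic libraries that overlapped, and 153 regions with no overlap fell below it. Just inside the threshold were a chromosome 11 region from 50243658 to 50245332 with a ratio of 1.332 and a chromosome 7 region from 25687626 to 25690125 with 1.333 (relative length 1.53 in adult and 1.15 in embryonic libraries). Just outside were a chromosome 5 region from 110875757 to 110878489 with 1.326 (1.74 in adult and 1.31 in embryonic libraries) and a chromosome 10 region from 80629587 to 80632057, also with 1.326. Values on both sides of the threshold were close to each other.

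The scaling bears on E14.5 in particular. Without it, the 4 adult libraries lay above the 4 embryonic ones in 120 of the 475 regions, and in 137 of all 8651 constant regions. The unscaled mean of ISC exceeded that of E14.5 in 321 of the 475 regions and that of E12.5 in all 475. For enterocytes the unscaled mean was higher than at E14.5 in 406 regions and higher than at E12.5 in all 475. Over all 8651 constant regions, the unscaled mean of ISC exceeded that of E14.5 in 835 and that of E12.5 in 7650. The unscaled mean of enterocytes exceeded that of E14.5 in 1539 of these regions and that of E12.5 in 6552. A greater unscaled length in the adult than at E12.5 was thus common among constant regions. The difference from E14.5 is thus in relative length for all 475 regions and in bp for part of them.

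**Figure D2:**
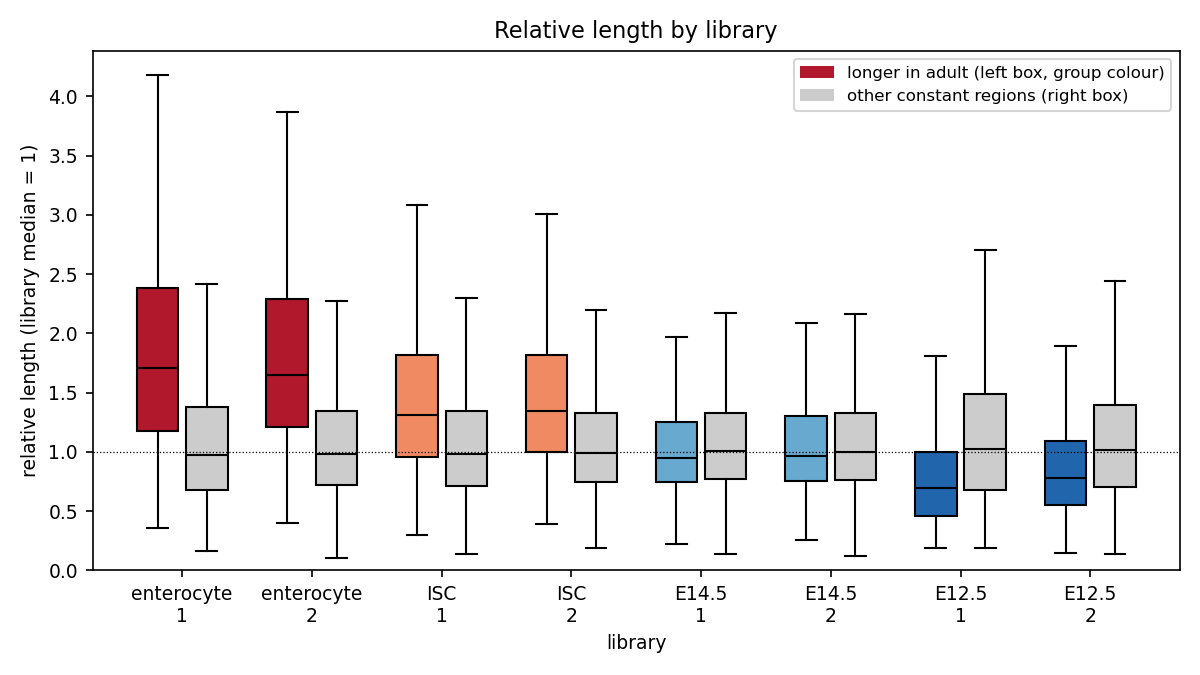
Relative length (1 is the library's median over constant regions) in each of the 8 libraries, with the 475 chosen regions in the left box in the colour of the group and the other 8176 constant regions in the right, grey box, where boxes span the quartiles with the median as a line and whiskers reach the last value within 1.5 times the box height. The medians of the chosen regions are highest in enterocytes (1.71 and 1.65) and lowest at E12.5 (0.694 and 0.778).

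The region with the largest ratio, 6.15, lies on chromosome 9 from 108755102 to 108763575. It was covered over 5322 and 8474 bp in enterocytes, 1633 and 1903 bp in stem cells, 888 and 984 bp at E14.5 and 439 and 579 bp at E12.5. Enterocytes stand well above the other libraries, and both ISC libraries are above both E14.5 libraries. The next, with a ratio of 4.20, is on chromosome 9 from 121550271 to 121554721. It had 3363 and 4451 bp in enterocytes, 2488 and 3339 bp in stem cells, 1148 and 1531 bp at E14.5 and 190 and 681 bp at E12.5. Here ISC were closer to enterocytes than to the embryo, and the lowest value equals the fragment length of 190 bp that the peak caller used for E12.5 replicate 1. Slc26a6, an anion exchanger of the apical epithelial membrane, and Vipr1, the receptor for the secretagogue vasoactive intestinal peptide, are the gene names this set of regions came with, and both genes lie on chromosome 9 in the GRCm38 gene table. Whether these regions hold their start sites was not tested.

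The remaining regions with the largest ratios had different profiles. The chromosome 11 region from 98209414 to 98212520 was longest in stem cells, with 2246 and 2591 bp in enterocytes, 2965 and 3107 bp in stem cells, 989 and 966 bp at E14.5 and 451 and 422 bp at E12.5. Of the 12 regions with the largest ratios it is the only one with both ISC libraries above both enterocyte libraries. On chromosome 3, from 97431807 to 97435138, enterocytes had 2845 and 3096 bp, ISC 795 and 1359 bp, E14.5 863 and 938 bp and E12.5 285 and 249 bp. In bp, the ISC and E14.5 libraries overlapped there, and they are apart only in relative length (0.614 and 0.891 in ISC, 0.504 and 0.536 at E14.5). The chromosome 16 region from 18626097 to 18630665 had 3507 and 4481 bp in enterocytes, 3475 and 4351 bp in stem cells, 1695 and 2460 bp at E14.5 and 250 and 486 bp at E12.5. The enterocyte and ISC libraries overlapped in it. At E14.5 it consisted of more than 1 peak, and the adult libraries had 1 unbroken peak that spans the gap.

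**Figure D3:**
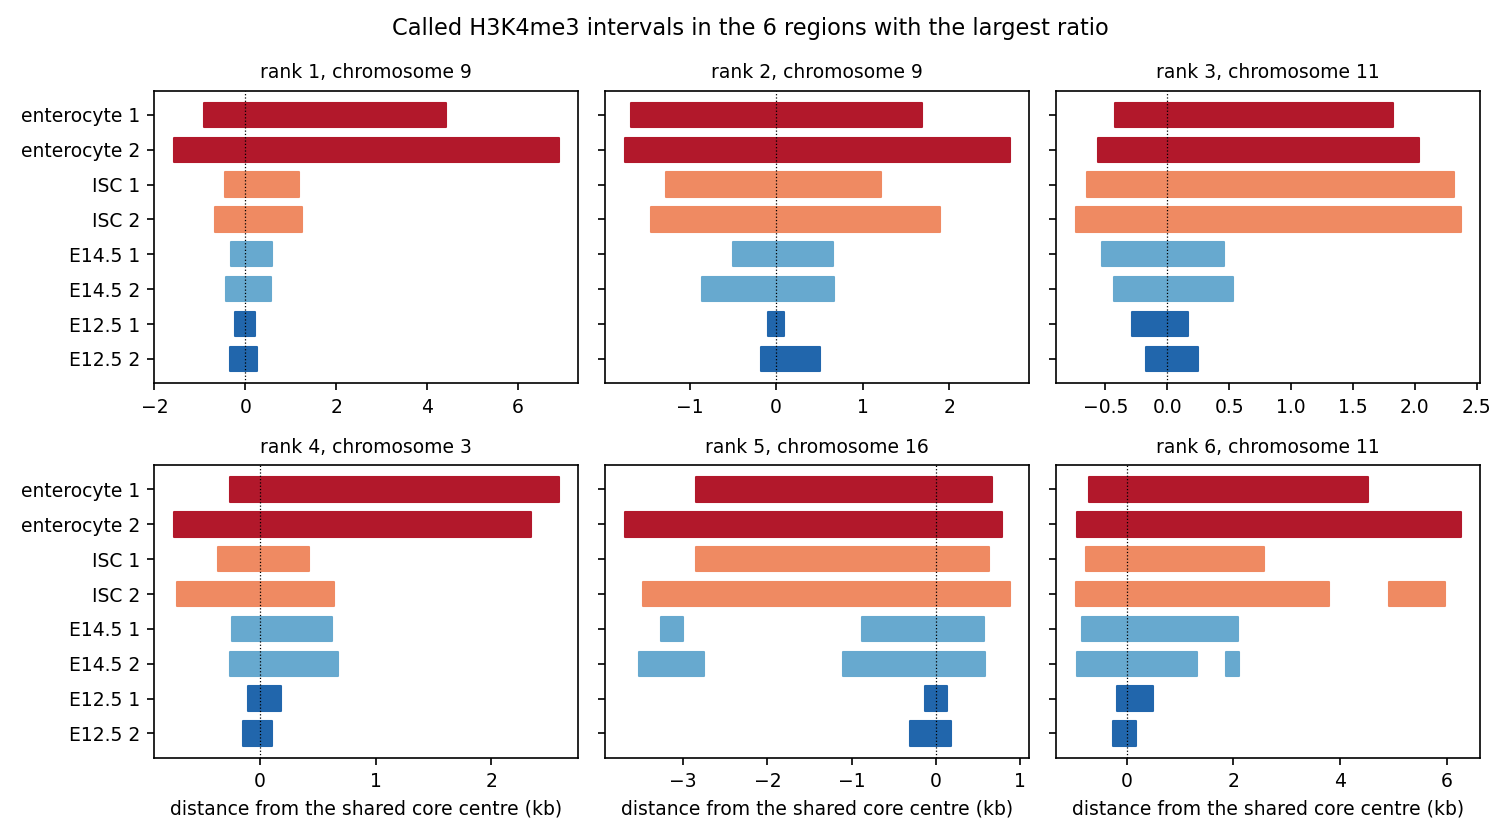
Called intervals in the 6 regions with the largest adult over embryonic ratio, as bars, 1 row per library, against the distance in kb from the middle of the stretch that all 8 libraries cover, on horizontal scales that differ between panels. Rank 1 spreads farthest to the right in enterocytes, rank 5 is similarly long in enterocytes and ISC, and rank 3 is longest in ISC.

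A second chromosome 11 region, from 96789986 to 96797195, was covered over 5214 and 7185 bp in enterocytes, 3338 and 5792 bp in stem cells, 2921 and 2491 bp at E14.5 and 678 and 438 bp at E12.5. On chromosome 5, from 113644571 to 113650209, the values were 5162 and 5623 bp in enterocytes, 1852 and 2949 bp in stem cells, 1348 and 2122 bp at E14.5 and 475 and 691 bp at E12.5. Enterocyte and ISC libraries overlapped in bp in the chromosome 11 region and did not in the chromosome 5 region. On chromosome 10, from 128179470 to 128182759, enterocytes had 2172 and 3261 bp, ISC 1305 and 2745 bp, E14.5 1147 and 836 bp and E12.5 420 and 421 bp. A further chromosome 5 region, from 31223080 to 31226485, had 3259 and 3110 bp in enterocytes, 2250 and 2067 bp in stem cells, 1481 and 1301 bp at E14.5 and 195 and 519 bp at E12.5. The chromosome 5 region starting at 31223080 separated all 4 groups in bp, and the chromosome 10 region did not separate enterocytes from ISC.

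Of the other 3 among the first 12, the chromosome 9 region from 66886798 to 66891827 had 3866 and 4999 bp in enterocytes, 3140 and 3886 bp in stem cells, 1896 and 2099 bp at E14.5 and 514 and 643 bp at E12.5. The chromosome 2 region from 25117514 to 25123809 had 4892 and 6296 bp in enterocytes, 3991 and 4169 bp in stem cells, 1803 and 2348 bp at E14.5 and 825 and 1095 bp at E12.5. The chromosome 9 region from 31719574 to 31724349 had 4199 and 4280 bp in enterocytes, 2588 and 2500 bp in stem cells, 1838 and 1714 bp at E14.5 and 545 and 405 bp at E12.5. The last 2 separate all 4 groups in bp, in the order enterocytes, ISC, E14.5, E12.5 from long to short. In the first of these 3, enterocyte and ISC libraries overlapped slightly.

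That order was common in the set. The place of both adult groups above both embryonic groups is fixed by the rule, while the order within the adult pair and within the embryonic pair is not. The mean relative length was highest in enterocytes, then in ISC, at E14.5 and at E12.5 in 326 of the 475 regions (68.6%). It was in this order in 10.1% of all constant regions, for which adult above embryonic is not required. Enterocytes had a higher mean than ISC in 378 regions (79.6%), against 49.8% of constant regions, and E14.5 a higher mean than E12.5 in 412 (86.7%), against 46.4%. The 393 regions that the rule turned round took showed the mirror image, with enterocytes lowest of all groups in 325 (82.7%) and E12.5 highest in 289 (73.5%). Enterocytes and E12.5 were thus the extremes in either direction, and the order is not particular to regions longer in the adult. Over all 8651 constant regions, too, E12.5 (3262) and enterocytes (2557) most often had the highest mean. The lowest was most often in enterocytes (2845) and E12.5 (2515). Their mean relative lengths also spread most, with quartiles of 0.70 and 1.42 at E12.5 and 0.73 and 1.40 in enterocytes. At E14.5 the quartiles were 0.77 and 1.32, and in ISC 0.75 and 1.35. The part of this spread in the order was not tested. The median ratio of mean relative lengths was 1.19 for enterocytes over ISC, 1.32 for ISC over E14.5 and 1.27 for E14.5 over E12.5, against 0.999, 1.00 and 0.977 over all constant regions. The largest of these 3 steps was between E14.5 and E12.5 in 175 regions (36.8%), between ISC and E14.5 in 173 (36.4%) and between enterocytes and ISC in 127 (26.7%). Over all constant regions these shares were 32.6%, 33.8% and 33.6%. The shares for the steps up to ISC were thus near that background.

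Enterocytes were then compared with ISC, to ask how the regions differ between the adult cell types. The rule did not set these groups against each other, but it used the values of all 4 adult libraries, so the counts over the set describe it and are not independent of the selection. Covered bp, scaled and on the scale log2(bp + 200), was tested with limma over all 17679 regions called in at least 2 libraries. Of the 475 regions, 61 were longer in enterocytes at an adjusted p under 0.05 (12.8%) and 3 were shorter (0.632%). Among all regions tested, 4.34% were longer and 3.18% shorter, and among constant regions 2.8% and 1.61%. The median log2 change was 0.23 over the 475 regions and 0.00 over constant regions. The log2 change was above 0 in 381 of the 475 (80.2%), against 49.7% of constant regions. The 61 calls had log2 changes of 0.36 to 1.85. By asking for no overlap, the rule favours regions with little spread among the libraries of a side. Its mean ratio can also be met through 1 group that is very long. The chromosome 9 region starting at 108755102 had mean relative lengths of 4.97 in enterocytes and 1.25 in ISC. The part of the rule in the number of calls was not tested.

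The count of 61 depended on single libraries. It was 27 without replicate 1 of enterocytes, 32 and 31 without replicates 1 and 2 of ISC, and 25 and 26 without replicates 1 and 2 of E14.5, while the median log2 change stayed between 0.20 and 0.25 with any library left out. With replicate 1 of E14.5 left out, 0.948% of constant regions were called longer. Of the 3 shorter regions, 1 passed when either E14.5 library or replicate 2 of ISC was left out.

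The largest change towards enterocytes was that of the chromosome 9 region starting at 108755102, with a log2 change of 1.85 ± 0.16 (SE, limma adjusted p = 0.00200). Next came a chromosome 11 region from 105828753 to 105831720. It was covered over 2460 and 2968 bp in enterocytes, 692 and 740 bp in stem cells, 785 and 769 bp at E14.5 and 209 and 476 bp at E12.5. Its log2 change was 1.70 ± 0.22 (limma adjusted p = 0.011), and ISC were no longer than E14.5 in bp. The call was lost without ISC replicate 2 (adjusted p = 0.0561) and without enterocyte replicate 1 (0.0624).

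On chromosome 15, from 82998065 to 83003376, enterocytes had 2881 and 5301 bp, ISC 1145 and 1380 bp, E14.5 1330 and 1409 bp and E12.5 479 and 895 bp. The log2 change was 1.53 ± 0.26 (limma adjusted p = 0.026), and it did not pass without replicate 1 (0.109) or 2 (0.108) of ISC, nor without replicate 1 (0.0664) or 2 (0.0652) of E14.5. The chromosome 3 region starting at 97431807 had a log2 change of 1.38 ± 0.18 (limma adjusted p = 0.011), lost without enterocyte replicate 1 (0.0728). In both, the enterocyte libraries lie above all others. The chromosome 5 region starting at 113644571 also passed, with 1.17 ± 0.22 (limma adjusted p = 0.038), but not without replicate 1 (0.145) or 2 (0.0797) of enterocytes, replicate 1 (0.147) or 2 (0.0646) of ISC, or replicate 1 (0.0705) or 2 (0.0697) of E12.5. The other 9 of the 12 regions with the largest ratios did not pass this test.

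The 3 regions shorter in enterocytes than in ISC carried their longest domains in stem cells. The chromosome 17 region from 15956582 to 15968581 had 4285 and 5109 bp in enterocytes, 9077 and 12000 bp in stem cells, 4326 and 4845 bp at E14.5 and 1669 and 2023 bp at E12.5. Its log2 change was -1.09 ± 0.10 (limma adjusted p = 0.0027), and in bp its enterocyte and E14.5 libraries overlapped. The stem-cell length came from the left side, which reached 941.5 bp past the shared stretch in enterocytes, against 4355.5 bp in stem cells, with 698.5 bp at E14.5.

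The chromosome 18 region from 65959682 to 65962425 had 1458 and 1385 bp in enterocytes, 2220 and 2744 bp in stem cells, 1339 and 1398 bp at E14.5 and 882 and 972 bp at E12.5 (log2 change -0.68 ± 0.10, limma adjusted p = 0.016). The chromosome 8 region from 128433130 to 128439794 had 2889 and 3704 bp in enterocytes, 4745 and 6366 bp in stem cells, 3111 and 2852 bp at E14.5 and 1672 and 1996 bp at E12.5 (log2 change -0.68 ± 0.10, limma adjusted p = 0.017). In both, the ISC libraries lie above all others. On chromosome 18 the limma adjusted p missed 0.05 without replicate 1 (0.0638) or 2 (0.0624) of E14.5 and without replicate 1 (0.063) or 2 (0.0835) of ISC. On chromosome 8 it missed 0.05 without replicate 1 (0.0517) or 2 (0.0509) of E14.5, replicate 2 of ISC (0.0655) or replicate 1 of enterocytes (0.0952).

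Between the embryonic stages, E14.5 was compared with E12.5 to ask whether the regions were already changing in the embryo. Here too the rule used the values of all 4 embryonic libraries, and the counts over the set are not independent of the selection. At E14.5, 75 of the 475 regions were longer (15.8%) and 1 was shorter (0.211%) at a limma adjusted p under 0.05. Among all regions tested, 15.2% were longer and 1.75% shorter, so the share of longer regions was near that background. Among constant regions 3.84% were longer and 3.24% shorter. The median log2 change was 0.30 over the 475 regions, 0.19 over all regions tested and -0.02 over constant regions. It was above 0 in 413 of the 475 (86.9%), against 47.4% of constant regions. The 75 calls had log2 changes of 0.36 to 2.17.

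**Figure D4:**
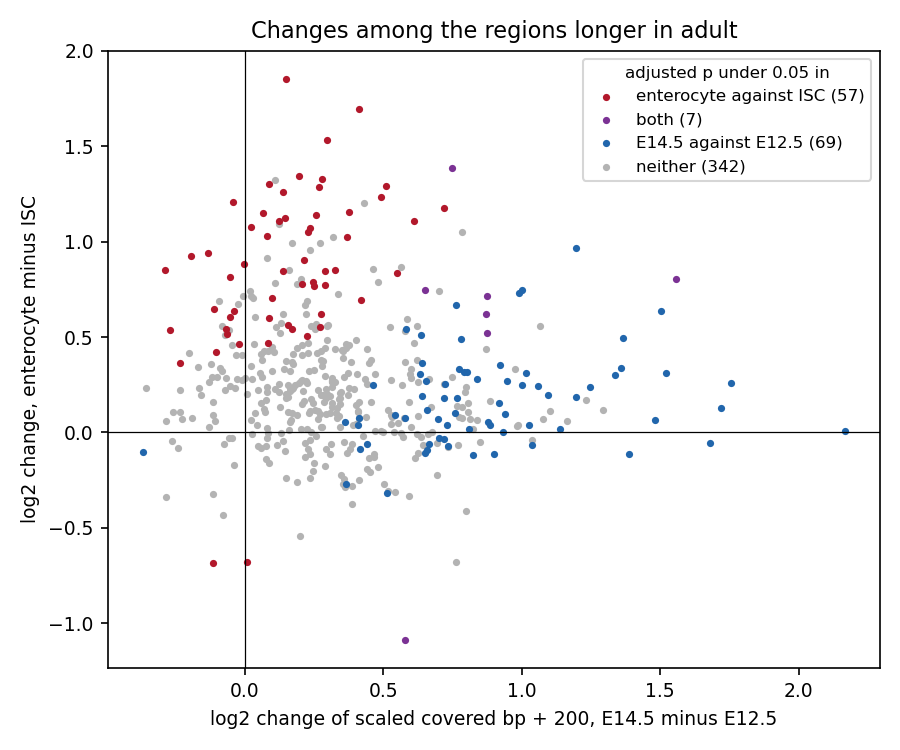
Log2 change of scaled covered bp + 200 in the 475 regions, enterocytes minus ISC (vertical) and E14.5 minus E12.5 (horizontal), with points coloured by the comparison in which the limma adjusted p was under 0.05. Most points lie above and to the right of 0, 342 passed in neither comparison, and 6 were longer in both.

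The count of 75 was 153 without E12.5 replicate 2, 7 without E14.5 replicate 1 and 5 without E14.5 replicate 2. Constant regions called longer were then 7.48%, 0.197% and 0.173%. Without E12.5 replicate 1 the count was 66 and the median log2 change 0.22. In E12.5 replicate 1, 85 of the 475 regions (17.9%) were covered over no more than 2 fragment lengths, against 6.62% of the other constant regions. In E12.5 replicate 2 there were 12 (2.53%, against 1.06%). In the E14.5, ISC and enterocyte libraries there were 0. Of the other constant regions, 4.15% were this short in enterocyte replicate 1 and 0.954% in ISC replicate 1. The rule chose long adult values, so the 0 in the adult libraries is partly set by it. The part of the short E12.5 peaks in the difference from E12.5 was not tested.

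In the regions with the largest change between the stages, the adult length was already present at E14.5 in bp. The chromosome 1 region from 137149762 to 137155874 had 5560 and 5629 bp in enterocytes, 5430 and 6024 bp in stem cells, 5822 and 6023 bp at E14.5 and 813 and 582 bp at E12.5. Its log2 change at E14.5 was 2.17 ± 0.19 (limma adjusted p = 0.000915) and kept its call in all 18 alternatives. The chromosome 1 region from 36527751 to 36535208 had 6146 and 7345 bp in enterocytes, 5594 and 5895 bp in stem cells, 5919 and 6007 bp at E14.5 and 904 and 1059 bp at E12.5. Its log2 change was 1.76 ± 0.08 (limma adjusted p = 0.000185), with the added length at E14.5 nearly all on the right of the shared stretch (4785.5 bp, against 15.5 bp at E12.5). Adult and E14.5 libraries differ in both regions in relative length and overlap in bp.

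The chromosome 19 region from 6994443 to 6997338 had 2633 and 2891 bp in enterocytes, 2552 and 2590 bp in stem cells, 2473 and 2747 bp at E14.5 and 229 and 599 bp at E12.5. Its log2 change was 1.72 ± 0.26 (limma adjusted p = 0.00857), lost without E14.5 replicate 1 (0.132) or replicate 2 (0.16). The chromosome 11 region from 3993700 to 3997500 had 2752 and 3534 bp in enterocytes, 3005 and 3714 bp in stem cells, 3139 and 2559 bp at E14.5 and 220 and 802 bp at E12.5. Its log2 change was 1.68 ± 0.38 (limma adjusted p = 0.036), lost without replicate 1 (0.282) or 2 (0.239) of E14.5, replicate 1 (0.0698) or 2 (0.0671) of ISC, or replicate 1 (0.0561) or 2 (0.0553) of enterocytes. Both regions have the E12.5 libraries far below all others.

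Among the 12 regions with the largest ratios, 5 passed in this comparison. Their log2 changes were 1.48 ± 0.22 on chromosome 16 from 18626097 (limma adjusted p = 0.00729), 1.36 ± 0.28 on chromosome 11 from 96789986 (0.027), 0.99 ± 0.19 on chromosome 9 from 31719574 (0.020), 0.92 ± 0.09 on chromosome 9 from 66886798 (0.00105) and 0.75 ± 0.18 on chromosome 3 from 97431807 (0.047). None of the 5 passed without either E14.5 library, with adjusted p between 0.0521 and 0.359. With replicate 2 of E12.5 left out, the chromosome 11 region did not pass either (0.0619). For chromosome 3 this held for replicate 1 (0.0722) and 2 (0.109) of E12.5 and for replicate 1 (0.0756) and 2 (0.0693) of enterocytes. The chromosome 17 stem-cell region starting at 15956582 passed as well (0.58 ± 0.10, limma adjusted p = 0.014). It did not pass without replicate 1 of E12.5 (0.0551), nor without replicate 1 (0.145) or 2 (0.23) of E14.5. In lists of equal number its log2 change between the stages was 0.037 (limma adjusted p = 0.977). In the main fit it was the only region longer at E14.5 and shorter in enterocytes than in ISC.

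The 1 region shorter at E14.5 lies on chromosome 15 from 32172623 to 32176561, with 3177 and 3467 bp in enterocytes, 3440 and 3929 bp in stem cells, 2769 and 2708 bp at E14.5 and 2208 and 2231 bp at E12.5. Its scaled log2 change was -0.37 ± 0.09 (limma adjusted p = 0.045), but without scaling it was 0.28 in the other direction (adjusted p = 0.0466). In bp the E14.5 libraries are the longer ones, so the direction depends on the scale. The scaled call was lost with any library left out except replicate 2 of E12.5 (adjusted p = 0.057 to 0.385).

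Most of the 475 regions reached farther in the adult on both sides of a shared stretch, but unevenly. The larger side held a median of 82.9% of the added distance. A stretch covered in all 8 libraries was found in 472 of the 475 regions. From its middle, the relative distance to the outer edge was greater in adult than in embryonic libraries on both sides in 403 regions (85.4%), against 19.9% of the other constant regions. A greater adult extent is what the rule selected, so this difference in shares is a description only. In 268 regions (56.8%) at least 80% of the added distance lay on 1 side. The share over all constant regions was also 56.8%. In both shares, a region that gained on 1 side and lost on the other counted as one-sided. A region that lost on both sides did not. Among the 472 regions, 69 (14.6%) lost on a side, and only 23.5% of all constant regions were longer on both. The shares of one-sided regions therefore cannot be set against each other, and nothing is read from them. The larger gain was on the left in 230 of the 472 regions and on the right in 242. As strand and start sites were not assigned, left and right are those of the mm9 coordinates. In the chromosome 9 region starting at 108755102, the right edge lay 5435.5 bp past the shared stretch in enterocytes, 992 bp in stem cells and 348.5 bp at E14.5, and the left edge 1023.5, 337 and 148.5 bp past it. In the chromosome 5 region starting at 113644571, the left edge reached 4939.5 bp in enterocytes, 2340 bp in stem cells and 1882.5 bp at E14.5, while the right edge reached 53, 94 and 121.5 bp. The chromosome 9 region starting at 121550271 grew on both sides, with left edges at 1621, 1265.5 and 582.5 bp and right edges at 2096, 1458 and 567 bp in enterocytes, ISC and E14.5.

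Joining of separate peaks was a small part of the set. In 415 regions (87.4%) every library had a single peak, against 95.3% of the other constant regions. More than 1 peak in an embryonic library beside a single peak in every adult library was seen in 27 regions. The opposite was seen in 21, and in 12 both sides had a library with more than 1 peak. When gaps of up to 1000 bp within a region were filled, 457 of the 475 regions were still chosen.

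Length, pileup and fold enrichment of the peaks were set against the constant regions of the same list. The pileup, fold enrichment and q-value of a peak are the authors' values and were ranked only within their own list, taking the widest peak of each region. By length, the median region stood at the 86.0 and 90.2 percentile of the enterocyte lists, 79.2 and 83.7 in ISC, 65.5 and 68.5 at E14.5 and 33.9 and 49.2 at E12.5. All constant regions stood, by length, at the 56.3 and 69.1 percentile in enterocytes, 63.2 and 68.0 in ISC, 69.1 and 71.3 at E14.5 and 55.9 and 63.3 at E12.5. Length is what the rule used, and as the lists differ in number these ranks were read only within a list. By pileup it stood at the 56.1 and 66.2 percentile in enterocytes, 57.7 and 61.9 in ISC, 60.1 and 63.7 at E14.5 and 42.3 and 50.9 at E12.5. All constant regions stood, by pileup, at 60.1 and 73.5 in enterocytes, 65.8 and 71.5 in ISC, 72.6 and 74.6 at E14.5 and 58.1 and 66.4 at E12.5. Within each of the 8 lists the pileup of the 475 regions was thus below that of the constant regions, while their length was above it in the 4 adult lists. The peaks were called in broad mode, and whether the pileup of a peak depends on its length was not tested. By fold enrichment they stood above it in enterocyte replicate 1 alone, at the 64.4 percentile against 56.9.

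**Figure D5:**
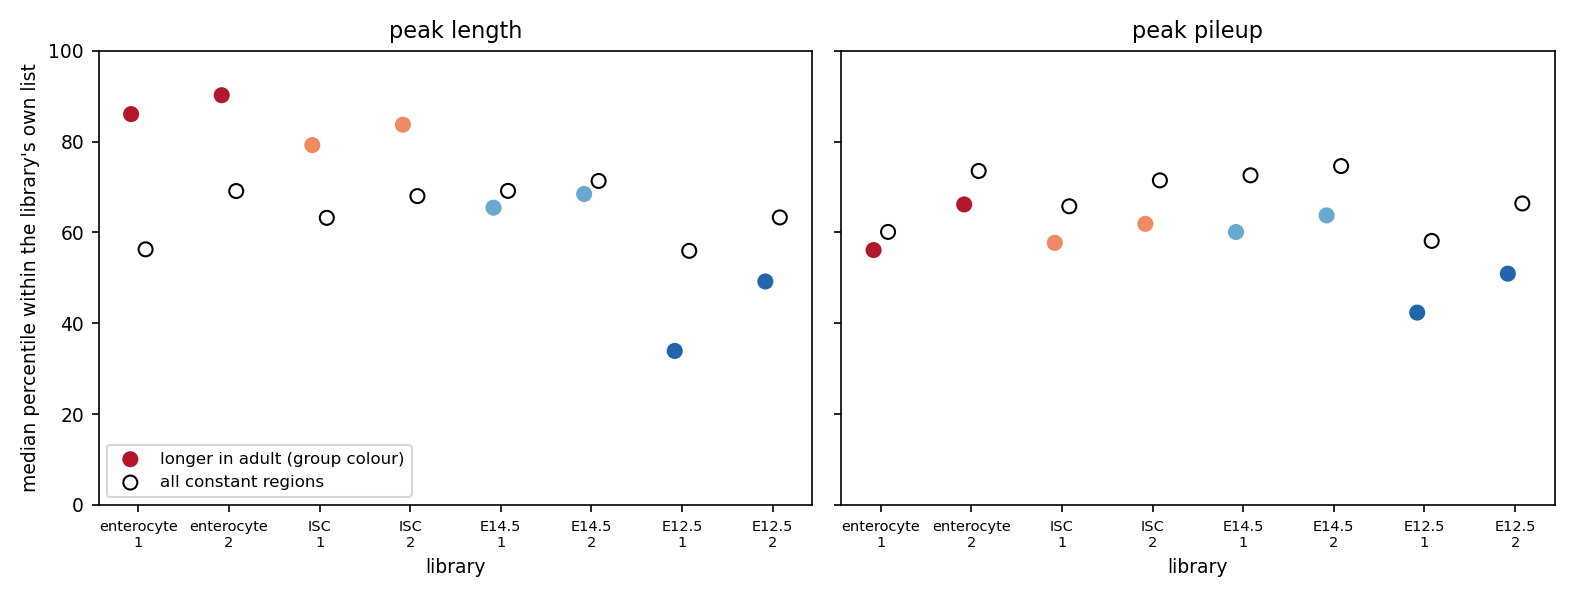
Median percentile of the widest peak of each region within the peak list of its own library, by length (left panel) and by pileup (right panel), for the 475 regions (filled, group colours) and all 8651 constant regions (open circles). By length the 475 regions stand at 86.0 and 90.2 in enterocytes and at 33.9 and 49.2 at E12.5, while by pileup they stay between 42.3 and 66.2.

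By significance the 475 regions were below the constant regions in every list except that of enterocyte replicate 1. Their median −log10 q was 11.4 and 35.9 in enterocytes, against 10.8 and 40.0 for all constant regions in the same lists. In ISC it was 10.8 and 27.8, against 12.1 and 33.3. At E14.5 it was 39.7 and 37.1, against 50.8 and 46.7, and at E12.5 it was 4.75 and 9.21, against 6.66 and 13.3. With peaks of a −log10 q of at least 10 only, 1067 regions remained constant and 41 met the rule, of which 27 were among the 475. The lists differ in depth, so these values were not compared between libraries.

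The regions were spread over all 19 autosomes. Their share of the constant regions ran from 3.87% on chromosome 13 (15 of 388) to 7.11% on chromosome 5 (43 of 605), with 6.64% on chromosome 4 and 4.69% on chromosome 9. Another of the 475 regions lay within 100 kb of 63 of them (13.3%), against 11.1% of the other constant regions. Regions called in all 4 adult and in no embryonic library numbered 174 on the autosomes, and 1 of these lay within 10 kb of 5 of the 475 regions (1.05%) and of 0.379% of the other constant regions. For the 339 regions called in all 4 embryonic libraries and in no adult one, the numbers were 0 of the 475 and 0.208%. Few of the 475 regions thus had a peak called only in the adult close by.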

How the data were processed

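Peak lists of 8 H3K4me3 ChIP libraries were used, 2 for each of 4 groups taken from the sample titles. The 4 input samples enter only as controls of the authors' calls. Per the file headers, the authors ran the broad mode of MACS 2.0.10.20130712 on each library at a q cutoff of 0.01. Bowtie 1.1.2, SAMtools 1.2 and mm9 stand in the submitters' processing notes. Deposited columns are position and length in bp, pileup signal, −log10 p-value, −log10 q-value and a fold enrichment ratio over input, all the authors' values. The lowest −log10 q was 1.01 to 1.09, so each list also holds peaks with a q-value above that cutoff. No read counts per region are given, so intervals for counting error could not be formed. Only depth in the headers (12821255 to 43259380 tags) bears on precision.

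Lists were merged where peaks overlapped or touched. Python 3.11.15 applied the rule. limma 3.58.1 in R 4.3.3 was fitted to all 4 groups together on log2(scaled bp + 200) for 17679 regions, with a trended prior (4 residual and 1.52 prior degrees of freedom), two-sided, with Benjamini-Hochberg adjustment over all regions tested. The step was tested on simulated data. The members and all lists were chosen with earlier results of these data known. Regions named are the 12 with the largest ratio and up to 4 per direction with the largest change passing each test. Naming by gene was planned and not done, since the gene tables were of another build and the lists of intestinal genes could not be applied. Alternatives were other pseudocounts, scalings, peak sets, minimum libraries, a replicate block and each library left out.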

Additional observations from a re-analysis of the deposited data

How the results depend on the processing

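The number of regions chosen was 131 without scaling (120 of them among the 475) and 41 with −log10 q of at least 10. It was 480 when scaled by total covered bp (402 shared), 445 in lists of equal number (432 shared), 588 and 331 at ratios of 1.2 and 1.5, and 503 to 699 with a library left out. Each library left out kept at least 401 of the 475. The rule then has fewer values to keep apart and is easier to meet, so this overlap is partly set in advance.

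Regions longer in enterocytes than in ISC numbered 61, 40 without scaling, 0 with −log10 q of at least 10 (limma, 26 at an unadjusted p under 0.05) and 25 to 63 with a library left out. Shorter ones numbered 3, 7 with quantile normalization, 0 with −log10 q of at least 10 (0 unadjusted) and 1 to 4 with a library left out. Regions longer at E14.5 than at E12.5 numbered 75, 385 without scaling, 48 with quantile normalization, 46 among regions called in all 8 libraries, 47 in lists of equal number and 5 to 153 with a library left out. Without scaling 52.5% of constant regions were also called longer at E14.5, at a median log2 change of 0.58. Shorter ones numbered 1, 2 in lists of equal number, 0 to 4 with a library left out, and 0 under 6 further settings. These were no scaling (0 at an unadjusted p under 0.05), quantile normalization (22), −log10 q of at least 10 (0) and regions called in at least 1 (5), at least 4 (5) or all 8 (3) libraries. The cause was not tested. Apart from the share without scaling, no share of constant regions stands beside the counts of this paragraph. They are not read as a result about the chosen regions.

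With the replicate number as a block the 4 counts were 56, 3, 71 and 1. Same-numbered libraries deviated together weakly (r = 0.238 for enterocytes and ISC, 0.0516 for E14.5 and E12.5, across constant regions), and the labels do not say that a number marks a shared batch. Under the block the chromosome 3 call from 97431807 at E14.5 was lost (adjusted p = 0.0704).

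With −log10 q of at least 10, none of the 8 named calls between enterocytes and ISC passed (adjusted p = 0.997 to 1). Of the 10 named regions longer at E14.5, 8 did not pass with it, namely chromosome 1 from 36527751 (0.13), chromosome 19 from 6994443 (0.135), chromosome 9 from 66886798 (0.145) and from 31719574 (0.171), chromosome 17 from 15956582 (0.249), chromosome 3 from 97431807 (0.297), chromosome 11 from 3993700 (0.306) and chromosome 16 from 18626097 (0.484). In lists of equal number the calls on chromosome 3 from 97431807 (0.317) and chromosome 11 from 105828753 (0.205) between enterocytes and ISC were lost. Between the embryonic stages, these lists lost the calls on chromosome 17 from 15956582 (0.977) and on chromosome 11 from 96789986 (0.173) and from 3993700 (0.117). The shorter call on chromosome 15 from 32172623 (0.076) was lost as well. Without scaling, the calls between enterocytes and ISC on chromosome 5 from 113644571 (0.108), chromosome 15 from 82998065 (0.0758) and chromosome 8 from 128433130 (0.113) were lost. The direction of 3 named regions turned in an alternative. For chromosome 15 from 82998065, enterocytes minus ISC was -0.51 with −log10 q of at least 10. For chromosome 3 from 97431807, E14.5 minus E12.5 was -0.0425 with quantile normalization and -0.36 in lists of equal number. For chromosome 15 from 32172623 it was 0.28 without scaling and 3.56 with −log10 q of at least 10. The ratio of the 12 leading regions stayed between 2.81 and 7.37 in all settings that gave a value. The shortest list was that of E12.5 replicate 1, with 11111 peaks.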
